A study of Mus musculus with 6 samples.

Results

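Cxcl13, the gene of a chemokine that attracts B cells, was examined together with 8 other genes of B cell attraction, B cell survival and lymphoid organization, in RNA from macrophages of the brain's borders. The 9 genes, of 35598 gene identifiers listed in each table, were Cxcl13, Cxcl12, Ccl19, Tnfsf13b, Tnfsf13, Ltb, Ltbr, Tnfrsf1a and Tnfrsf1b, each matched by its Ensembl identifier to the GENCODE M21 annotation. Central nervous system-associated macrophages (CAMs) live in the perivascular spaces, the meninges and the choroid plexus. Per the labels they were sorted from brains of male C57BL/6 mice as cells without CD3 that carried CD11b, CD45 and CD206, with no treatment or genetic change in either group. The aged group held 3 libraries from mice of 18 months, and the young group 3 libraries from mice of 2 months. Whether each library stands for its own animal is not stated in the labels; errors and p-values therefore cover the scatter of these 6 libraries alone, and that scatter may be technical. Cxcl13 was chosen by its measured levels in aged and young libraries and the other genes were set beside it, so the age comparison of the 9 genes is given as a description, and calls over all genes are given as counts for background.

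CXCL13 guides B cells into lymphoid follicles through its receptor CXCR5, and CXCL12 and CCL19 guide lymphocytes through CXCR4 and CCR7. BAFF (Tnfsf13b) and APRIL (Tnfsf13) keep B cells and plasma cells alive through the receptors BAFF-R, TACI and BCMA. Lymphotoxin, which contains the chain encoded by Ltb, acts on the lymphotoxin beta receptor (Ltbr) of stromal cells during the building of lymph nodes and follicles, and TNF acts through TNFR1 (Tnfrsf1a) and TNFR2 (Tnfrsf1b). In lymphoid organs CXCL13 is known mainly as a product of follicular stromal cells, and macrophages of some tissues also make it.

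The start regions of Cxcl13 and of Tnfsf13b are shown because the first gene had the difference that defines this group of genes and the second is its partner in B cell support that held a named motif near its start. Both are RefSeq windows of 300 bases on GRCm38.p6 that begin 250 bases before a transcript start, on the plus strand, at chr5:95956689-95956988 for Cxcl13 and chr8:10006383-10006682 for the second of the 2 start sites of Tnfsf13b. Capitals mark a TATA box (TATAAA) in Cxcl13 and a match to the interferon-stimulated response element (GAAA, any 2 bases, GAAA) in Tnfsf13b.
Cxcl13: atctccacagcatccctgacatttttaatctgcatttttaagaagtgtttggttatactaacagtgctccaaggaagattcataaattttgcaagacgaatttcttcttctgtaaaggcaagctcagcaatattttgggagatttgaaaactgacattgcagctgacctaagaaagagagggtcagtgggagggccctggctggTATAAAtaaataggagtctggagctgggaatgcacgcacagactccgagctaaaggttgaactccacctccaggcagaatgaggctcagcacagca
Tnfsf13b: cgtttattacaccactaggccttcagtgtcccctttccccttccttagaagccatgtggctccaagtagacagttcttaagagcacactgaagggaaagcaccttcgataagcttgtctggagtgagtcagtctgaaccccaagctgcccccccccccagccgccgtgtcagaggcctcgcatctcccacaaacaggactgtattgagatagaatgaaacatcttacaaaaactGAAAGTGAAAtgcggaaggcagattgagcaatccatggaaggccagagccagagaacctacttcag
Both strands of the windows of all 9 genes were searched for 4 motifs, and no 2 matches overlapped. TATAAA was found in 1 of the 9 genes (Cxcl13, first base at -46 from the start) and in 13.6% of 32544 mouse windows. The interferon-stimulated response element was found in 3 of the 9 (Tnfsf13b at -16, Tnfrsf1b at -10 and Ccl19 at -208) and in 3.45% of all windows. An NF-kB motif (GGG, any 2 bases, TTTCC) was found in 1 of the 9 (Ltb at -87) and in 1.61% of all windows, and an ETS motif bound by PU.1 (GAGGAAG) in Ltb and Tnfrsf1b and in 13.4% of all windows. These matches describe letters in the windows and were not tied to any level.

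The aged libraries held 30044347 to 32902649 counts and the young libraries 26605077 to 33306093. Levels are counts scaled to library size by TMM (CPM), and comparisons between genes use the deposited TPM, which also accounts for transcript length. Of the 9 genes, 6 passed the filter on low counts, which kept 10661 genes, and Cxcl12, Ccl19 and Ltb did not. CAM markers were high in every library, with Mrc1, the gene of the CD206 used in the sort, at 1182 CPM or more. Markers of other cells were present at uneven levels: neutrophil markers summed to 21492, 7761 and 25.8 CPM in aged libraries 1, 2 and 3, against 12013 to 37508 CPM in young ones. In bulk RNA, fewer cells of a type and less RNA per cell cannot be told apart.

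Cxcl13 was present throughout the aged libraries and undetected in the young. The annotated locus (ENSMUSG00000023078.6, build mm10, chromosome 5, 95956951 to 95961068, plus strand) had 208, 117 and 154 CPM in aged libraries 1, 2 and 3, from 5997, 4524 and 4356 counts, against 0 counts in each young library. The groups did not overlap. The aged mean was 160 ± 45.9 CPM (SD, n = 3). A young count of 0 was taken to allow up to 3 counts (0.112 CPM at most). Above that limit the aged mean lay 1432-fold and the lowest aged library 1050-fold. The limit covers counting error only, since PCR copies are not independent molecules, so these folds are not firm lower bounds. For Tnfsf13b, the young libraries held 421, 778 and 0 counts. Cxcl13 reads made up 0.0159% of all aged counts. By level per length Cxcl13 stood at rank 827 of 14906 genes with a TPM above 0 in aged library 1, rank 1089 of 15678 in aged library 2 and rank 1108 of 13445 in aged library 3. Its annotation holds 1 transcript, its counts were whole in every library, and none of its 50-base stretches occurs in another annotated gene.

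Across all genes tested, edgeR's quasi-likelihood test called 1 gene higher in aged libraries at an adjusted p under 0.05, 0.00938% of those tested, and 0 genes lower. That gene was Cxcl13, the 1 of the 9 that was called, a count fixed by how the genes were chosen. With aged library 2 or aged library 3 left out, edgeR called 0 genes higher, with 681 and 694 genes at an unadjusted p under 0.05 in either direction. At an unadjusted p under 0.05, edgeR placed 387 genes (3.63%) higher in aged libraries and 218 (2.04%) lower. After adjustment, DESeq2 gave 270 higher and 187 lower genes. Groups that did not overlap, with aged higher, were found for 7.54% of genes tested and for 1 of the 6 tested genes of the set, again Cxcl13.

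**Figure D1:**
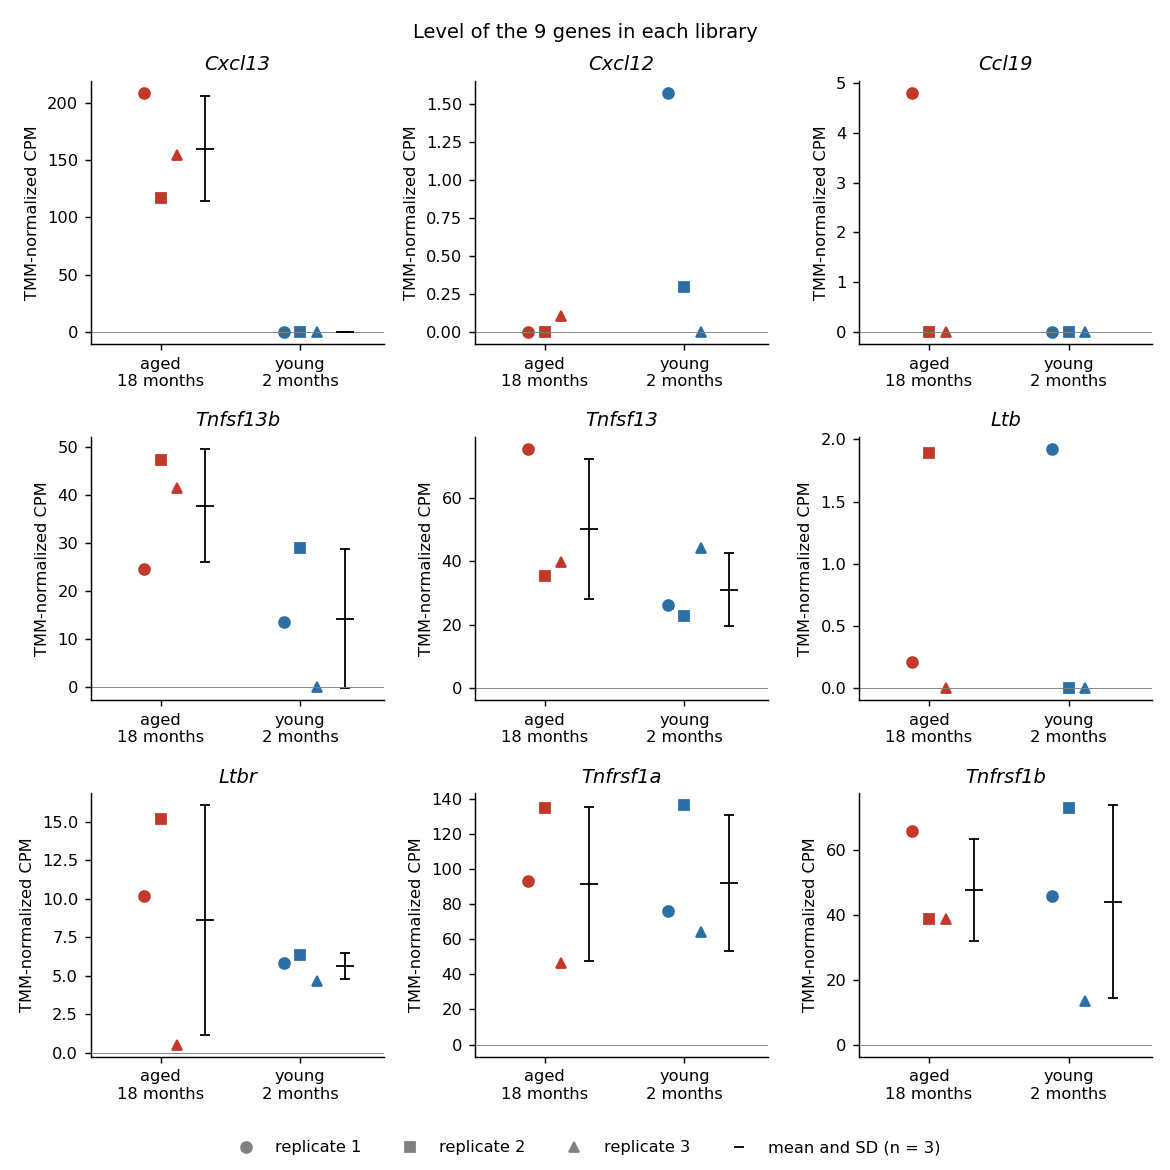
TMM-normalized CPM of the 9 genes in each of 3 aged (18 months, left, red) and 3 young (2 months, right, blue) libraries, marked by replicate, with mean and SD for the 6 genes that passed the filter. Cxcl13 lies between 117 and 208 CPM in aged libraries and at 0 in young ones, and the libraries of all other genes overlap.

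Several cell marker sums differed between the same libraries. The 11 microglia markers summed to 11031, 18324 and 14623 CPM in aged libraries 1, 2 and 3, against 5822 to 8381 CPM in young ones, and 8 of the 11 were higher in aged libraries without overlap. The 13 CAM markers summed to 16885, 8110 and 14496 CPM in aged libraries and to 24615 to 27809 CPM in young ones, with 5 of 13 lower in each aged library and 1 higher. Among the 3 aged libraries the order of Cxcl13 (replicate 1 above 3 above 2) was that of the CAM sum and the reverse of that of the microglia sum. The part of these sums in the Cxcl13 values was not tested.

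Markers of stromal cells, known to make CXCL13 in lymphoid organs, were low in sum at both ages. The 13 fibroblast, mural and follicular dendritic markers summed to 6.98 to 12.9 CPM in aged libraries and 11.4 to 20.99 CPM in young ones, with Pdgfrb at 0 counts in all 6 and Col1a1 at no more than 0.644 CPM. Pdgfra, a fibroblast receptor gene, was low but higher in aged libraries without overlap. It had 3.06, 1.37 and 2.86 CPM in aged libraries and 0.416 to 0.670 CPM in young ones. Endothelial markers summed to 15.5 to 29.8 CPM in aged libraries and 20.6 to 36.2 CPM in young ones. Red cell markers summed to 9863, 9095 and 85.8 CPM in aged libraries, against 10100 to 30362 CPM in young ones, without overlap. In aged library 3, which had the lowest red cell sum and a neutrophil sum of 25.8 CPM, Cxcl13 was at 154 CPM. The same library had the highest choroid plexus (8222 CPM) and dendritic cell (2570 CPM) marker sums of the aged libraries. Which cells the Cxcl13 RNA came from was not tested.

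Markers of B cells, which CXCL13 attracts, were uneven between libraries. Pax5, the B lineage regulator, did not exceed 0.278 CPM. Ms4a1, a surface protein gene of B cells, had 0, 0.518 and 0 CPM in aged libraries, against 3.84, 0 and 17.0 CPM in young ones. Cd79a, a chain of the B cell receptor, had 1.598, 1.658 and 0 CPM in aged libraries and 0 in young ones. Cd79b, its partner chain, was less uniform at 84.1, 14.5 and 3.22 CPM in aged libraries and 58.4, 74.0 and 102 CPM in young ones. The 17 B and plasma cell markers summed to 260 to 338 CPM in aged libraries and 219 to 383 CPM in young ones.

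The receptor for CXCL13 was detected mainly in 1 library, aged replicate 2. Cxcr5 had 0.452, 4.72 and 0.0353 CPM in aged libraries, against 0, 0 and 0.107 CPM in young ones, and was too low to be tested. Aged libraries 1 and 2 held 13 and 182 counts, and the other 4 libraries at most 3. Some of that gene's annotated span overlaps Bcl9l on the opposite strand, and the library kit does not mark strand.

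Cxcl12, a chemokine of stromal and endothelial cells that retains B cell precursors in bone marrow, was barely detected. The gene (mm10 chromosome 6, 117168535 to 117181367) had 0, 0 and 0.106 CPM in aged libraries, against 1.57, 0.298 and 0 CPM in young ones. Aged library 3 held 3 counts, and a young library (replicate 1) held 49, the most of the 6. Its receptor Cxcr4 was low but present in all libraries, at 15.4, 6.27 and 6.33 CPM in aged ones and 4.58, 9.08 and 6.65 CPM in young ones, and the groups overlapped.

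Ccl19, which draws lymphocytes and mature dendritic cells into T cell zones, was found in 1 library. The gene (mm10 chromosome 4, 42754525 to 42756577, minus strand) had 4.79 CPM in aged library 1 and 0 counts in the other 2 aged libraries and in all young libraries. Of its 50-base stretches, 52.0% occur in other annotated Ccl19-like genes, so this value is uncertain. Its receptor gene Ccr7 had 0, 0 and 0.0353 CPM in aged libraries and 0.0640, 0 and 0 CPM in young ones. The 11 markers of dendritic cells, which Ccl19 attracts, summed to 1902, 2260 and 2570 CPM in aged libraries, against 1146, 831 and 1854 CPM in young ones, without overlap. Of these 11, 1 was higher in aged libraries without overlap and 2 were lower. The defining pair, Flt3 and Zbtb46, did not follow the sum, with at most 1.66 and 0.0353 CPM in aged libraries and up to 7.93 and 20.8 CPM in young ones.

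Tnfsf13b, which encodes BAFF, was higher on average in the aged libraries, within a wide spread. The gene (ENSMUSG00000031497.9, mm10 chromosome 8, 10006467 to 10039072) had 24.6, 47.3 and 41.4 CPM in aged libraries, against 13.5, 29.0 and 0 CPM in young ones. Aged library 1 lay below the highest young library, so the groups overlapped, and young library 3 held no read. The means were 37.7 ± 11.8 CPM in aged libraries and 14.1 ± 14.5 CPM in young ones (SD, n = 3 each), and the fitted log2 fold change, aged over young, was 1.42 (SE 1.57). Without young replicate 3 it was 0.84.

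Tnfsf13, which encodes APRIL, showed a smaller difference in means. It (ENSMUSG00000089669.7, mm10 chromosome 11, 69682846 to 69685784, minus strand) had 75.3, 35.2 and 39.9 CPM in aged libraries, against 26.4, 22.8 and 44.2 CPM in young ones. Young library 3 lay above aged libraries 2 and 3, so the groups overlapped. The means were 50.2 ± 21.9 CPM in aged libraries and 31.1 ± 11.4 CPM in young ones (SD, n = 3 each; log2 fold change 0.69, SE 0.63). The value in aged library 1 carried much of this, and without it the log2 fold change was 0.28.

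Reads of Tnfsf13 can be split with its neighbours. Of its 50-base stretches, 57.3% also occur in Tnfsfm13, an annotated gene on the same strand, or in the antisense gene Tnfsf13os. Tnfsfm13 had 17.3, 8.83 and 10.003 CPM in aged libraries, against 3.59, 0.447 and 0.393 CPM in young ones, without overlap (log2 fold change 3.02, SE 1.73, edgeR adjusted p = 0.936). Tnfsf13os had 35.3, 2.93 and 0.0353 CPM in aged libraries and 0 counts in young ones. Summed over Tnfsf13 and Tnfsfm13, the level was 92.6, 44.1 and 49.9 CPM in aged libraries and 29.9, 23.3 and 44.6 CPM in young ones. These sums still overlapped by a narrow margin, between aged library 2 and young library 3. They leave out Tnfsf13os, whose 2.93 CPM in aged library 2 exceeds that margin, so the overlap depends on this choice.

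The ratio of Tnfsf13b to Tnfsf13 in TPM varied within both groups, at 0.362, 1.21 and 1.08 in aged libraries and 0.487, 1.33 and 0 in young ones. The sum of both in TPM was 36.8, 43.5 and 30.2 in aged libraries and 13.4, 18.6 and 15.7 in young ones. These sums did not overlap; the pair was added up after the values had been seen, and no test was made.

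Ltb, which encodes the membrane chain of lymphotoxin and is made chiefly by lymphocytes, was near the limit of detection. The gene (mm10 chromosome 17, 35194439 to 35196320) had 0.208, 1.89 and 0 CPM in aged libraries, against 1.92, 0 and 0 CPM in young ones. One library of each group was near 1.9 CPM and the others were at 0 or at few counts. The T, NK and innate lymphoid markers, from cells that can make lymphotoxin, summed to 164, 45.7 and 8.48 CPM in aged libraries and 45.1, 94.1 and 17.8 CPM in young ones. Its partner chain gene Lta had 0 counts in aged libraries and 0.0961, 0 and 0 CPM in young ones.

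Ltbr, the receptor of lymphotoxin, was scattered in aged libraries and low and steady in young ones. It (ENSMUSG00000030339.7, mm10 chromosome 6, 125306571 to 125313885, minus strand) had 10.2, 15.2 and 0.530 CPM in aged libraries, against 5.83, 6.36 and 4.69 CPM in young ones. Aged libraries 1 and 2 were above every young library and aged library 3 was below every young library. The means were 8.63 ± 7.45 CPM in aged and 5.63 ± 0.858 CPM in young libraries (SD, n = 3 each; log2 fold change 0.62, SE 1.62), and without aged replicate 2 the fitted value was -0.06.

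Tnfrsf1a, which encodes the TNF receptor present on most cells, did not separate the groups by level. The gene (ENSMUSG00000030341.17, mm10 chromosome 6, 125349362 to 125362484) had 93.3, 134 and 46.7 CPM in aged libraries, against 76.3, 136 and 63.8 CPM in young ones. Means were 91.5 ± 43.9 CPM in aged and 92.1 ± 38.6 CPM in young libraries (SD, n = 3 each; log2 fold change -0.01, SE 0.51). Replicate 2 was the highest and replicate 3 the lowest in both groups.

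Tnfrsf1b, which encodes the TNF receptor found mainly on immune and endothelial cells, overlapped as well. It (ENSMUSG00000028599.10, mm10 chromosome 4, 145213463 to 145246870, minus strand) had 65.7, 38.5 and 38.5 CPM in aged libraries, against 45.6, 72.7 and 13.4 CPM in young ones. Means were 47.6 ± 15.7 CPM in aged and 43.9 ± 29.7 CPM in young libraries (SD, n = 3 each; log2 fold change 0.12, SE 0.70). The lowest value was that of young library 3, the library in which Tnfsf13b was also lowest. Tnf, the ligand of both receptors, was low, at 12.6, 7.72 and 0 CPM in aged libraries and 1.25, 22.7 and 10.8 CPM in young ones.

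Although its levels overlapped, Tnfrsf1a had a shorter deposited transcript length in each aged library. The tables give a length for each gene and library, and for some genes with several annotated transcripts it varied between libraries. It was 2004, 1765 and 1788 bases in aged libraries, against 2156, 2154 and 2153 bases in young ones. The young values lay within 3 bases of the longest annotated transcript (2156 bases, protein-coding), and all 3 aged values lay below it, between it and the other 5 annotated transcripts of 250 to 885 bases. The difference in means, aged minus young, was -302 bases (1852 ± 132 in aged and 2154 ± 1.53 in young libraries, SD, n = 3 each). The gene was singled out after its lengths had been seen, so the difference is a description. An exact permutation test gave p = 0.1, the smallest value possible with 3 against 3 libraries, and cannot decide on a difference.

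Of 6270 tested genes with several annotated transcripts and over 3 counts in every library, 5.73% were likewise shorter without overlap in aged libraries and 4.05% longer, 9.78% in all. Of the other members of the set with reads in every library, Tnfsf13 was at 1407 bases in 5 libraries, Ltbr at 2107 bases in 5 libraries and Tnfrsf1b at 3818 bases in all 6. The deposited TPM divides by a length of this kind. Tnfrsf1a averaged 30.2 ± 23.2 TPM in aged libraries and 19.4 ± 8.44 TPM in young ones (SD, n = 3 each), while its CPM means differed by under 1 CPM. Tnfrsf1b, of constant length, had 38.5 CPM in both aged libraries 2 and 3, but 6.83 and 4.43 TPM. TPM and CPM thus also diverged where length did not vary, and the part of length in the Tnfrsf1a values was not tested.

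**Figure D2:**
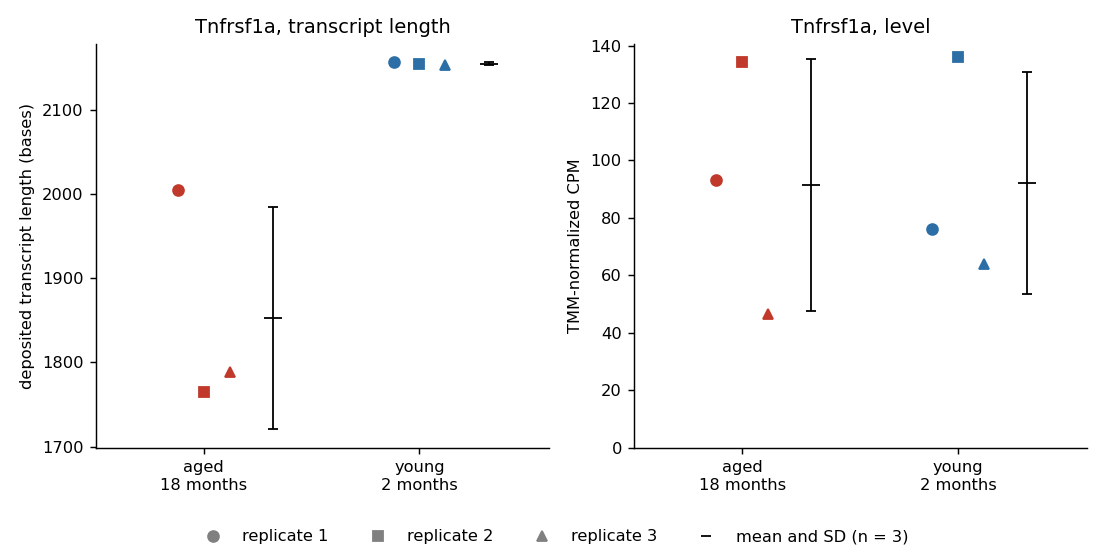
Deposited transcript length of Tnfrsf1a in bases (left panel, axis not from 0) and its TMM-normalized CPM (right panel) in 3 aged and 3 young libraries, marked by replicate, with mean and SD. Lengths are 1765 to 2004 bases in aged libraries and 2153 to 2156 bases in young ones, while the CPM ranges overlap.

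Per length, Cxcl13 had the highest level of the 9 genes in each aged library, at 99.2, 88.8 and 75.4 TPM. Next in the aged order of mean TPM came Tnfrsf1a, Tnfsf13 (20.4 ± 6.27), Tnfsf13b (16.5 ± 7.06) and Tnfrsf1b (6.24 ± 1.597, SD, n = 3). Among these neighbours the ranges did not overlap between Cxcl13 and Tnfrsf1a or between Tnfsf13b and Tnfrsf1b, and they overlapped between Tnfrsf1a and Tnfsf13 and between Tnfsf13 and Tnfsf13b. Ltbr followed at 2.68 ± 2.79 TPM, and the means of Ccl19, Ltb and Cxcl12 were each set by 1 or 2 libraries.

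In young libraries Tnfrsf1a led at 19.4 TPM, before Tnfsf13 (10.9 ± 4.19), Tnfsf13b (5.01 ± 5.35), Tnfrsf1b (4.91 ± 3.40) and Ltbr (1.25 ± 0.193, SD, n = 3). The single pair of neighbours in that order whose ranges did not overlap was Tnfrsf1b and Ltbr. Tnfrsf1a exceeded Ltbr in TPM by 9.48, 9.99 and 104 times in aged libraries and by 12.2, 20.3 and 12.8 times in young ones. It exceeded Tnfrsf1b by 2.90, 8.26 and 2.83 times in aged libraries and by 3.17, 3.50 and 8.97 times in young ones.

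The genes did not share 1 order over the aged libraries. Cxcl13, Tnfsf13 and Tnfrsf1b were highest in replicate 1. Tnfsf13b, Ltb, Ltbr and Tnfrsf1a were highest in replicate 2, where Cxcl13 was lowest. Replicate 3 held the lowest aged level of Ltbr and Tnfrsf1a.

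The wider pathway was described with 4 lists of 82 genes in all, of which 45 passed the filter. Other than the 9 genes, 39 of 73 passed, and edgeR called 0 of them higher and 0 lower. At an unadjusted p under 0.05, edgeR placed 2 of the 39 higher and 2 lower, beside 3.63% and 2.04% of all genes tested. The median log2 fold change of the 39 was -0.04, beside -0.02 over all genes tested. Without overlap, 5 of the 39 were higher and 7 lower in aged libraries, and over all genes tested 7.54% were higher and 7.19% lower. The DESeq2 Wald test, which called 3.71% of the genes it tested, called Ch25h, Relb, Traf3 and Ccl25 higher besides Cxcl13. Traf3 and Ccl25 did not pass the edgeR filter, and the groups overlapped in CPM for both. Traf3 had 15.3, 9.85 and 0.0353 CPM in aged libraries, against 0.128, 0 and 0.0358 CPM in young ones. Ccl25 had 14.6, 0.0259 and 24.4 CPM in aged libraries, against 0.128, 0.186 and 0.107 CPM in young ones. Ccl25 also overlaps Elavl1 on the opposite strand.

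In the attraction list (9 of 23 genes tested), edgeR called no gene other than Cxcl13. Ch25h, the enzyme that makes 25-hydroxycholesterol, a precursor of the ligands of the B cell guidance receptor GPR183, had 29.2, 16.4 and 50.02 CPM in aged libraries, against 0, 1.64 and 0.0358 CPM in young ones. The groups did not overlap (log2 fold change 5.83, SE 2.01, edgeR adjusted p = 0.709, DESeq2 adjusted p = 0.0491). Hsd3b7, an enzyme that degrades these ligands, had 43.8, 36.0 and 67.4 CPM in aged libraries, against 18.7, 8.67 and 6.04 CPM in young ones (log2 fold change 2.14, SE 0.79, edgeR adjusted p = 0.765). However, 83.1% of its 50-base stretches are shared with other annotated genes, among them Gm49388, which overlaps it. Gpr183 itself was abundant and overlapped, at 518 ± 183 CPM in aged and 558 ± 103 CPM in young libraries (SD, n = 3 each). Cyp7b1, the enzyme that follows Ch25h in making the ligand, had 0 counts in all 6 libraries.

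Cxcl16, a membrane-bound chemokine and scavenger receptor, had 187, 176 and 163 CPM in aged libraries, against 91.1, 132 and 37.1 CPM in young ones (log2 fold change 1.02, SE 0.48, edgeR adjusted p = 0.892). The groups did not overlap.

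In the survival list (12 of 18 genes tested), 2 receptors of BAFF and APRIL were expressed. Tnfrsf13b, which encodes TACI, had 20.2, 72.8 and 34.0 CPM in aged libraries, against 12.6, 10.3 and 13.8 CPM in young ones. These CPM values did not overlap (log2 fold change 1.79, SE 0.82, edgeR adjusted p = 0.883). In TPM the groups overlapped, at 3.7, 30.3 and 6.2 in aged libraries and 7.1, 7.9 and 4.1 in young ones. Tnfrsf17, which encodes BCMA of plasma cells, was at 63.5 ± 36.0 CPM in aged and 105 ± 33.1 CPM in young libraries (SD, n = 3 each) and overlapped. Tnfrsf13c, which encodes BAFF-R of B cells, did not exceed 0.707 CPM. Tslp, a cytokine of barrier tissues, had 55.6, 66.6 and 145 CPM in aged libraries, against 273, 345 and 350 CPM in young ones (log2 fold change -1.86, SE 0.43, edgeR adjusted p = 0.515). Il15, a cytokine for T and NK cells, had 15.7, 33.6 and 21.2 CPM in aged libraries, against 43.5, 50.1 and 86.3 CPM in young ones. Its log2 fold change was -1.35 (SE 0.63, edgeR adjusted p = 0.892), and its groups overlapped in TPM.

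In the lymphotoxin and TNF list (20 of 28 genes tested), no gene passed edgeR's test and the median log2 fold change was 0.14. Vcam1, an adhesion molecule that lymphotoxin receptor signalling can induce, was the most abundant, at 351 ± 212 CPM in aged and 215 ± 58.6 CPM in young libraries (SD, n = 3 each), and overlapped. Tnfrsf11a, which encodes the receptor RANK, had 75.6, 49.7 and 67.7 CPM in aged libraries, against 128, 91.7 and 105 CPM in young ones (log2 fold change -0.75, SE 0.41, edgeR adjusted p = 0.929); on the log2(TPM + 1) scale its value was 0.20. Ripk1, a kinase of TNF receptor signalling, was lower without overlap in aged libraries (3.32 ± 3.40 CPM, against 19.7 ± 6.50 CPM in young ones, SD, n = 3 each), but it overlaps Serpinb6a, a more abundant gene on the opposite strand. Birc3, an inhibitor of cell death recruited to the same receptors, had 8.69, 4.17 and 6.54 CPM in aged libraries, against 14.9, 21.8 and 13.7 CPM in young ones. Its log2 fold change was -1.38 (SE 1.21, edgeR adjusted p = 0.993), and its groups overlapped in TPM. Relb, the NF-kB subunit that lymphotoxin receptor signalling activates, was low at 2.43, 13.6 and 8.20 CPM in aged libraries, against 1.06, 0.186 and 0.179 CPM in young ones (log2 fold change 4.08, SE 1.93, edgeR adjusted p = 0.892, DESeq2 adjusted p = 0.0203); it was named after its values were seen.

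Of the inducer and lymph node list, 4 of 13 genes were tested and 0 were called. Lyve1, a hyaluronan receptor of lymphatic vessels and of CAMs, had 212, 208 and 95.2 CPM in aged libraries, against 329, 265 and 255 CPM in young ones. Its log2 fold change was -0.72 (SE 0.38, edgeR adjusted p = 0.920), and its groups overlapped in TPM. Id2, a regulator that lymphoid tissue inducer cells need, was at 101 ± 14.7 CPM in aged and 76.3 ± 55.7 CPM in young libraries (SD, n = 3 each). Enpp2, the enzyme autotaxin, had 139, 77.8 and 671 CPM in aged libraries and 66.0, 26.5 and 1173 CPM in young ones, highest in the libraries in which choroid plexus epithelium markers summed to 8222 CPM (aged replicate 3) and 12008 CPM (young replicate 3).

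**Figure D3:**
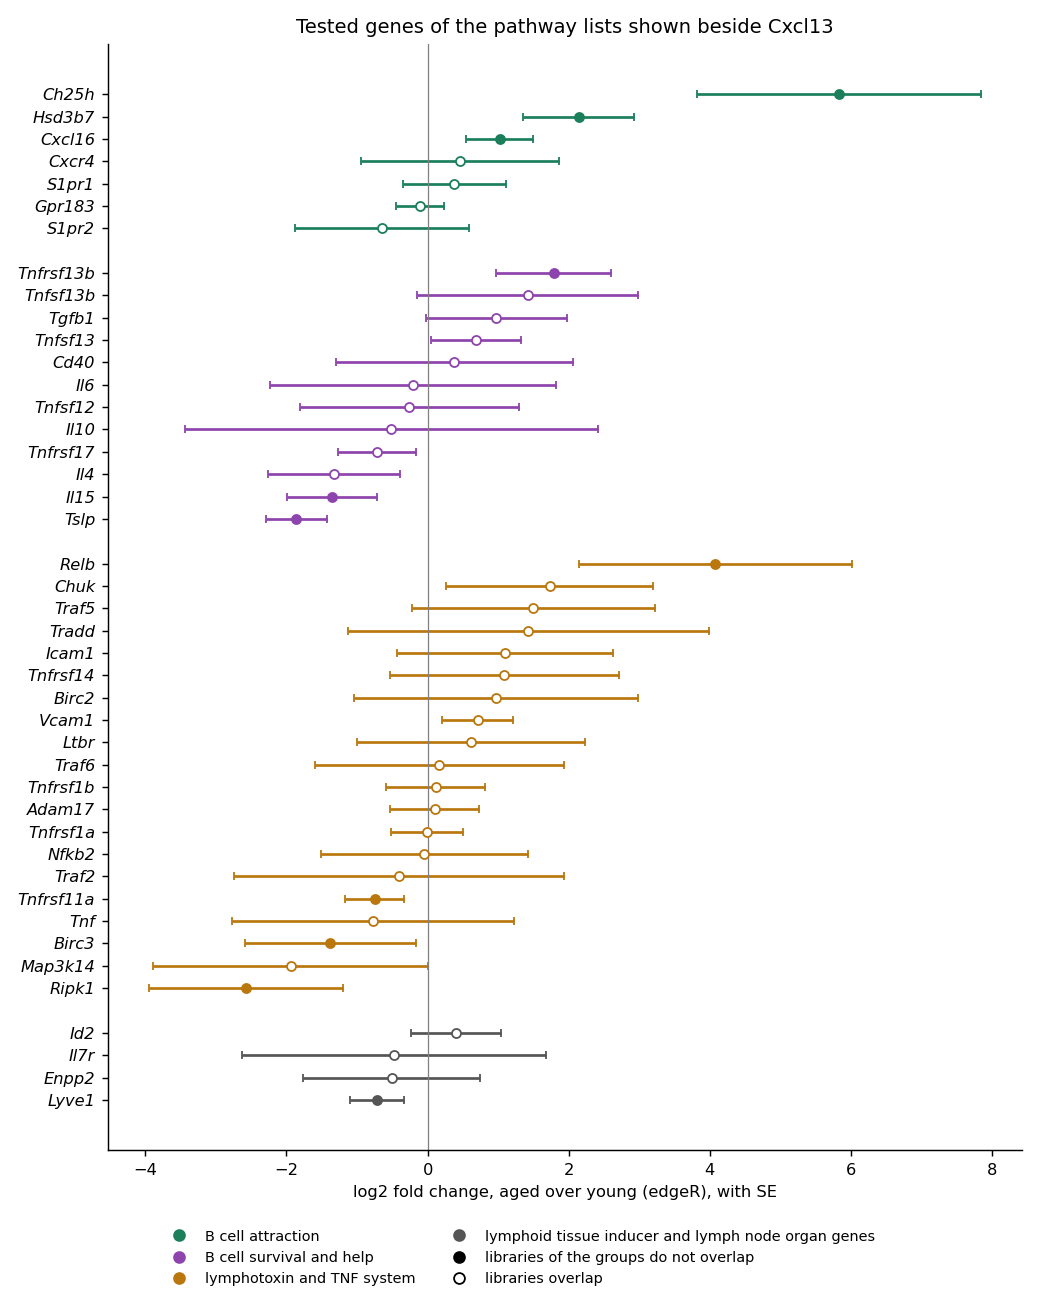
Fitted log2 fold change (aged over young, edgeR) with SE for tested genes of the 4 lists shown beside Cxcl13, coloured by list, filled where libraries of the groups do not overlap. The values shown run from 5.83 for Ch25h to -2.57 for Ripk1, with no gene shown at an adjusted p under 0.05.

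Genes with a pattern like that of Cxcl13 were counted, by the same levels for which Cxcl13 was chosen. Of 20429 genes with at most 3 counts in every young library, 2 had at least 10 CPM in every aged library. These were Cxcl13 itself and Tmem254c, and 0 genes showed the reverse pattern. The 20429 include genes without reads at either age, so the count is a description and no measure of rarity. Tmem254c, a transmembrane protein gene, had 12.3, 11.7 and 23.1 CPM in aged libraries, against 0 counts in each young library (Pearson r of log2(CPM + 1) with Cxcl13 of 0.987 over the 6 libraries, a value set mostly by the difference between groups). All of its 50-base stretches occur in other genes, among them the copies Tmem254a and Tmem254b, so its reads cannot be assigned to 1 copy. The labels give the strain of both ages as C57BL/6 and name no substrain, and whether the ages share one was not tested. Summed over the 3 copies, the level was 17.3, 34.9 and 65.6 CPM in aged libraries, against 0, 0.149 and 0 CPM in young ones. Among aged libraries this sum was lowest in replicate 1, where Cxcl13 was highest.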

How the data were processed

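Per the labels' protocols, RNA of sorted CAMs was turned into cDNA by template switching, amplified by PCR, tagmented and sequenced as single reads. The kit does not mark strand. Per the submitters' processing notes, the tools were bcl2fastq 2.20, fastp, FastQC, Picard and DRAGEN, and the build mm10. The sources used here give neither the role of each tool nor the annotation. Each deposited table gives, per the file headers, an estimated count per gene that is not scaled to depth, the authors' TPM, scaled for depth and effective length, and a transcript length in bases. Of the estimated counts, 90.2% to 92.9% were whole; they were rounded. Of 35598 identifiers, 35513 matched GENCODE M21 when the version was ignored.

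edgeR 4.0.16 (R 4.3.3) compared 3 aged with 3 young libraries without covariates: filterByExpr, TMM, and a robust two-sided quasi-likelihood F test, adjusted by Benjamini-Hochberg over 10661 genes and called under 0.05. Each SE was obtained by dividing the size of the log2 fold change by the root of F. A count of 0 was taken to allow up to 3 counts. This limit covers counting error only, since PCR copies are not independent molecules. The scripts were tested on simulated data. DESeq2 1.42.0, limma 3.58.1 and other filters and scalings were alternatives. The 9 genes and the lists were chosen with earlier results of these data known. Besides the 9 genes, the naming rule took from each list the called genes, up to 3 genes in each direction whose groups did not overlap and whose mean reached 10 CPM, and the 2 most abundant by TPM. Genes like Cxcl13 had at most 3 counts in every young and at least 10 CPM in every aged library. Receptors, ligands, genes at 0 and genes called by DESeq2 were named after their values were seen. Some genes of the lists are not reported here, in the text or the plot of fold changes.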

Additional observations from a re-analysis of the deposited data

How the results depend on the processing

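Against 1 higher and 0 lower gene by edgeR, DESeq2 called 270 higher and 187 lower in aged libraries, and edgeR with no low-count filter 51 higher and 11 lower; limma-voom called 0 higher (936 genes at an unadjusted p under 0.05) and limma-trend on log2(TPM + 1) 2 higher. Of the pathway genes, edgeR called 1 higher, DESeq2 5 higher and 1 lower, limma-voom 0 higher, and edgeR with no low-count filter 1 lower (Tslp). With each library left out in turn, the calls were 0 to 2 higher and 0 to 1 lower over all genes, and 0 to 1 higher among pathway genes. The TPM scale moved the median log2 fold change of all genes to 0.22, from -0.02. The fold of Cxcl13 over the young limit ranged from 1226 without aged replicate 1 to 1635 without aged replicate 2. The fitted log2 fold changes of Tnfsf13b (0.84 to 4.26) and Tnfsf13 (0.28 to 1.04) stayed above 0 in all 14 alternatives without a call. Ltbr (-0.20 to 1.18) changed sign in 3 of 13 alternatives, Tnfrsf1a (-0.39 to 0.43) in 6 of 14 and Tnfrsf1b (-0.31 to 0.68) in 2 of 14; the cause was not tested. Replicate numbers were shared between ages, but same-numbered libraries did not deviate together (correlations across genes of -0.00639, 0.00247 and 0.0350). With a replicate block, edgeR called 1 gene higher, Cxcl13, and 0 lower. Cxcl12, Ccl19 and Ltb were too shallow for any comparison.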
